A study of Homo sapiens with 16 samples.

Results

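The clustered protocadherin genes are a row of cell-surface recognition genes on chromosome 5, and their messenger RNA was followed here in 6 lines of SW480, an established human colon adenocarcinoma line. Members were the protein-coding rows of the count table whose gene symbol belongs to the alpha, beta or gamma families or to their C-type genes, and 53 of the 66023 rows met this rule: 15 alpha, 16 beta and 22 gamma genes. They span 727 kb of the plus strand, at chr5:140786136-141512977 of GRCh38. Parental cells were unmodified (n = 2). The other lines were stable lentiviral lines selected with puromycin: shScrambled carried a control shRNA with a random, non-mammalian sequence (n = 2), shAjuba1 an shRNA against the coding region of Ajuba (n = 3) and shAjuba2 an shRNA against its non-coding region (n = 3). Ajuba OE carried a construct that drives FLAG-HA-tagged Ajuba from the CMV promoter (n = 3), and Control carried that construct with the Ajuba sequence excised (n = 3). Each condition is 1 stable line, and the study calls its replicates technical, so p-values measure the spread between these samples and not between independently made lines.

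Each clustered protocadherin is made from its own promoter and a large variable exon that codes for the extracellular cadherin repeats, the membrane span and part of the tail. In the alpha and gamma families the variable exon is spliced to constant exons shared by the family, whereas a beta gene is complete in its own exon. In neurons most promoters are chosen at random and in small numbers per cell, so that neighbouring cells carry different sets of homophilic adhesion proteins, while the C-type genes at the ends of the alpha and gamma rows are used more uniformly. CTCF and cohesin loop the promoters to distant enhancers, and SMCHD1 and DNA methylation keep unused promoters silent. Because a read in a shared constant exon overlaps many genes, and the default of the read counter leaves such reads unassigned, the counts of an alpha or gamma member come mainly from its own exons.

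A GC-rich element holding the letters CGCT sits in most of these promoters and is the best known sequence they share. It was searched for in the RefSeq promoters (GRCh38.p14, from 250 bases before to 50 bases after each gene's start), which held 47 of the 53 members. On the strand of the gene, CGCT was in 46 of the 47 promoters (97.9%), against 54.3% of all 35116 promoters. The longer forms GGCGCT and GNNGGCGCT contain it and each other, and N stands for any base. GNNGGCGCT lay on the gene's strand in 13 of the 14 beta promoters (92.9%) and in 5.45% of all promoters, and on either strand in 9.49% of all promoters. PCDHB1 was the beta promoter with no match. Among the 13, the match began between positions -84 and -2 from the start. No alpha promoter held it, and in PCDHGB4 and PCDHGB5 it lay on the other strand. A match is a run of letters, and no binding was measured.

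The beta windows below are shown because they carry the same letters in genes that passed 3 counts and in genes that never did. Capitals mark GNNGGCGCT, with up to 20 bases on either side, 5′ to 3′ on the plus strand. The first 3 belong to genes that never passed 3 counts in any sample, at chr5:141094535-141094583, chr5:141100384-141100432 and chr5:141121714-141121762.
PCDHB2: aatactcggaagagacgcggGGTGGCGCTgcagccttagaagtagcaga
PCDHB3: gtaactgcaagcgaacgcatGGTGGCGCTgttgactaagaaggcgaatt
PCDHB4: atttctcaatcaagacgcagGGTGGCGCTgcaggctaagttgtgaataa
The next 6 belong to the beta genes whose levels differed over the 6 lines, at chr5:141135170-141135218, chr5:141182301-141182349, chr5:141208634-141208682, chr5:141213856-141213904, chr5:141223254-141223302 and chr5:141245305-141245353.
PCDHB5: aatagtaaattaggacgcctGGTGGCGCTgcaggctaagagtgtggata
PCDHB16: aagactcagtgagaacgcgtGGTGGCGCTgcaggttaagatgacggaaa
PCDHB12: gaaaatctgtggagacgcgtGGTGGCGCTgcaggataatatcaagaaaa
PCDHB13: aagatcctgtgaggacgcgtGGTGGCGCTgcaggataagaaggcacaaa
PCDHB14: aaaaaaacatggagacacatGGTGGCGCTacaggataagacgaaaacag
PCDHB15: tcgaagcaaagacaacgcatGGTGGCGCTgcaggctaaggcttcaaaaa
All 9 hold GGTGGCGCT, and all were picked from promoters with a match. PCDHB1, the beta promoter with no match, also never passed 3 counts. A link between the letters and the level of a gene was not tested.

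Windows around CGCT in the leading gamma and alpha members show how the flanks differ between families, with CGCT in capitals, at chr5:141373831-141373874, chr5:141397886-141397929, chr5:141417603-141417646 and chr5:140966415-140966458.
PCDHGA6: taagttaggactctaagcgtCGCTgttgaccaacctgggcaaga
PCDHGB5: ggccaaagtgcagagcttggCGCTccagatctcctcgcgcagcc
PCDHGB7: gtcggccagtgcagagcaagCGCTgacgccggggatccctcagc
PCDHAC2: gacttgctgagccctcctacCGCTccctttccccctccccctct
The PCDHGC3 promoter is shown whole because this gene gave most of the cluster's reads. It lies at chr5:141475716-141476015 on the plus strand, and capitals mark each CGCT on that strand.
PCDHGC3: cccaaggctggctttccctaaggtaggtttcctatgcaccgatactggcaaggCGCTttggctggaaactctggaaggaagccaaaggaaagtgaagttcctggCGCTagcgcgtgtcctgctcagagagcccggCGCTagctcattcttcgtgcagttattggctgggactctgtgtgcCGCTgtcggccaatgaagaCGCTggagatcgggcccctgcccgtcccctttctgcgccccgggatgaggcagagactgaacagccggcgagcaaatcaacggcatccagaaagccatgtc
GGCGCT, the 6-letter form, was there at positions -199, -148 and -117 from the start, and GNNGGCGCT was absent from these 300 bases.

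Total counts per sample ran from 30132396 to 69684675, so that 3 counts, the limit that a count of 0 allows, stood for 0.0431 to 0.0996 RPM (the count divided by the sample's total and multiplied by 1000000). AJUBA, the targeted gene, lay at 462 to 566 RPM in Ajuba OE, 89.4 to 100.49 in its Control and 88.8 to 91.6 in Parental. It lay at 81.6 to 83.4 RPM in shScrambled, 57.1 to 68.6 in shAjuba2 and 47.3 to 53.5 in shAjuba1. Ajuba OE thus lay above its Control and the knockdown lines below shScrambled, the directions their labels give. The difference of shAjuba2 from shScrambled did not pass the edgeR test (adjusted p = 0.0773), nor did that of shAjuba1 from shAjuba2 (adjusted p = 0.141). The second library was the farthest from the others of its line in shAjuba2, Control and Ajuba OE, with a root mean square log2 distance of 0.389, 0.331 and 0.331 over 21057 genes, where libraries otherwise lay at 0.171 to 0.299. Colon epithelial markers summed to between 2999 and 7320 RPM in every sample, with CDX1 at 4 counts or fewer, while the 4 blood markers stayed at or below 2.67 RPM. The 9 neuronal markers, of interest because these genes are best known from neurons, summed to 72.1 to 78.7 RPM in shAjuba1 and 70.5 to 82.7 in Ajuba OE, and to 97.6 or more in the other lines. The 8 stromal markers summed to 6.34 to 10.6 RPM in Ajuba OE and to 15.6 to 37.8 RPM elsewhere, with DCN at 1 count or fewer. The part of these markers in the results below was not tested.

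One gene stood far above the rest of the cluster, and 16 of the 53 members were silent or close to it. PCDHA6, PCDHA7, PCDHA8 and PCDHA13 had no count in any of the 16 samples, and those that never passed 3 counts were 12 alpha genes and the beta genes PCDHB1 to PCDHB4. Every gamma member passed 3 counts in some sample. A mean of at least 0.1 RPM was reached by 30 members in at least 1 line and by 18 in every line. Per line this was 28 members for shAjuba2, 25 for Parental, 24 for Control, 23 for shScrambled, 22 for Ajuba OE and 19 for shAjuba1. In bulk RNA, fewer cells using a promoter and less RNA from each cell cannot be told apart.

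**Figure D1:**
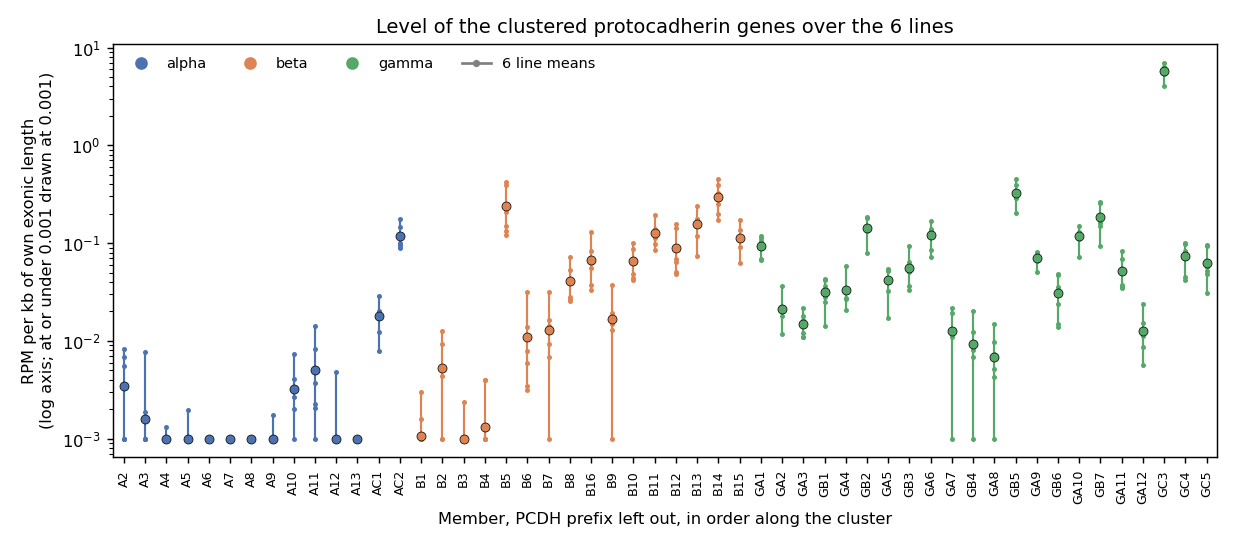
Level of each member in RPM per kb of its own exonic length (log axis), in order along the cluster. Small points are the 6 line means, and the large point their mean. PCDHA1 is left out because it has 7 exonic bases of its own. PCDHGC3 lies at 5.81 RPM per kb and the next member, PCDHGB5, at 0.327.

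Among the C-type genes, PCDHGC3, whose cytoplasmic tail is known to bind the Wnt regulator AXIN1, was by far the highest. Per kb of exonic length not shared with any other gene, its mean level over the lines was 5.81 RPM, 17.8 times that of PCDHGB5. It kept the first place with all annotated exons as the length. Its 3253 own bases are the 2849 bases around the variable exon and blocks of 188, 214 and 2 bases further down, and gene counts do not say in which of them the reads lay. PCDHGC3 measured 23.6 and 21.9 RPM in the Parental samples, 20.4 and 20.2 in those of shScrambled, and 13.5, 13.1 and 12.5 in those of shAjuba1. The shAjuba2 samples had 20.6, 13.6 and 18.5 RPM, the Control samples 20.7, 17.5 and 19.1, and the Ajuba OE samples 23.5, 16.3 and 22.4. All 3 shAjuba1 samples lay below every other sample, and in shAjuba2, Control and Ajuba OE the second library was the lowest. PCDHGC3 took 54.7% ± 2.99 (SD, n = 3) of the cluster's counts in shAjuba2, 72.2% ± 2.33 in Ajuba OE, and between 63.6% and 67.6% on average in the other lines.

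The other C-type genes were low, and all 15 alpha members together summed to 0.397 to 0.793 RPM on average per line. PCDHAC2, the leading alpha gene, had 0.117 RPM per kb and measured 0.603 and 0.557 RPM in shScrambled, 0.335, 0.265 and 0.386 in shAjuba1, 0.249 and 0.336 in Parental, and 0.580, 0.315 and 0.535 in shAjuba2. Its shScrambled samples lay above those of shAjuba1 and Parental, and neither difference passed the test (adjusted p = 0.0571 and 0.051). PCDHAC1 never passed 5 counts. PCDHGC4, which is needed for the survival of interneurons, had 1 to 21 counts per sample, and PCDHGC5 had 3 to 19. Neither PCDHGC4 nor PCDHGC5 was called over the 6 lines (adjusted p = 0.387 and 0.115).

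Outside the C-type genes the highest levels per kb in the gamma row were 0.327 RPM for PCDHGB5, 0.185 for PCDHGB7 and 0.143 for PCDHGB2. In the beta row they were 0.299 for PCDHB14, 0.238 for PCDHB5, 0.158 for PCDHB13 and 0.127 for PCDHB11. In the alpha row PCDHA11 and PCDHA2, next after the C-type genes, lay at 0.00506 and 0.00346 RPM per kb and rest on at most 3 counts per sample. Some of these genes resemble each other: 20.8% of the 50-base stretches of PCDHB13 also occur in another member of the cluster, mostly PCDHB8, and 19.3% of those of PCDHGB5 occur elsewhere, mostly in PCDHGB4, so their split is uncertain.

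**Figure D2:**
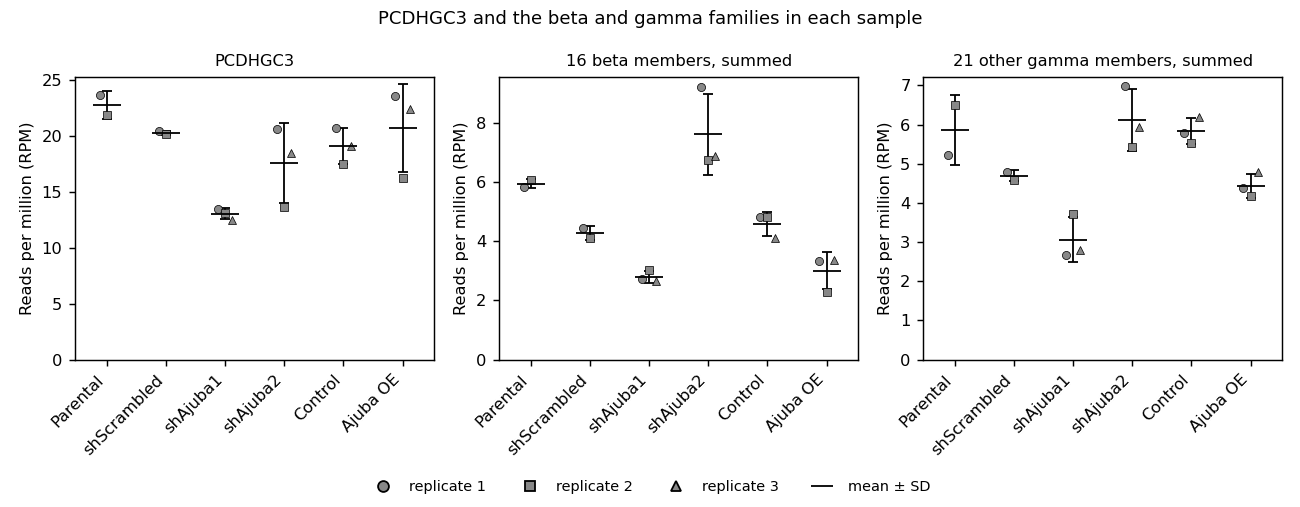
RPM of PCDHGC3, of the 16 beta members summed and of the 21 other gamma members summed, in each sample of the 6 lines. Points are samples, shaped by replicate number, and bars are mean ± SD. The shAjuba1 samples are the lowest for PCDHGC3, and the shAjuba2 samples are the highest for the beta sum.

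The beta genes, summed, ran highest in shAjuba2 and lowest in shAjuba1 and Ajuba OE. The sum was 7.61 ± 1.38 RPM for shAjuba2 (SD, n = 3), 5.95 ± 0.163 for Parental (n = 2), 4.58 ± 0.398 for Control (n = 3) and 4.28 ± 0.233 for shScrambled (n = 2), and 2.99 ± 0.627 for Ajuba OE and 2.80 ± 0.196 for shAjuba1 (n = 3 each). The gamma members without PCDHGC3 summed to 6.11 ± 0.796 RPM for shAjuba2, 5.87 ± 0.890 for Parental, 5.84 ± 0.335 for Control, 4.70 ± 0.148 for shScrambled, 4.44 ± 0.310 for Ajuba OE and 3.06 ± 0.570 for shAjuba1. In shAjuba2 the beta sum was 1.78 times that of shScrambled while PCDHGC3 was 0.866 times, and in shAjuba1 the beta sum, the other gamma members and PCDHGC3 were 0.654, 0.652 and 0.643 times.

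The first question was whether the cluster changes when Ajuba is knocked down. Against shScrambled, 2 of the 14 members tested were lower in shAjuba1, PCDHGC3 and PCDHB13, and 0 were higher. Over all genes 20.2% were called lower and 18.2% higher in this comparison, so a count of 2 of 14 is no more than the background. For PCDHGC3 the log2 fold change was -0.65 ± 0.0979 (SE, adjusted p = 2.16e-04). PCDHB13 measured 0.878 and 0.894 RPM in shScrambled and 0.293, 0.498 and 0.331 in shAjuba1, groups that do not overlap (log2 fold change -1.30 ± 0.291, adjusted p = 0.00362). All 14 tested members had a log2 fold change below 0, with a median of -0.64 against -0.01 over all genes. The summed neuronal markers were lower in shAjuba1 too, at the levels given above, and of the 7 tested 3 were called lower and 1 higher. In shAjuba2 against shScrambled 3 of 7 were also called lower and 1 higher, where 4.44% and 3.19% of all genes were. The median log2 fold change of these markers was -0.49 in shAjuba2 and -0.19 in shAjuba1. Their sum ran from 98.2 to 123 RPM in shAjuba2 and from 100.69 to 101.68 in shScrambled. The filter on low counts removed 39 members, and it keeps a gene that is high in either line. PCDHGB2, with 12 and 22 counts in shScrambled and 4, 8 and 10 in shAjuba1, passed it mainly through shScrambled. The shared direction and the median of the 14 are therefore not read further. PCDHGC3 and PCDHB13 were called under all 13 other fits tried, while PCDHGC3 did not reach a log2 fold change of 1. The number of members called rose to 4 without shAjuba1 replicate 2 or 3, fits whose share over all genes is not given.

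No member was called in shAjuba2. Against shScrambled, 22 members were tested and 0 were called by edgeR or by DESeq2, where 3.19% of all genes were called higher and 4.44% lower. At an unadjusted p under 0.05 there were 4, PCDHB5, PCDHB11, PCDHB12 and PCDHB14, each above 0. The Parental means of PCDHB5, PCDHB12 and PCDHB14 were 1.16, 0.554 and 1.67 RPM. They lay nearer to shAjuba2 (1.23, 0.603 and 1.915) than to shScrambled (0.599, 0.246 and 1.07), which was called lower than Parental for these genes. For PCDHB11 the Parental mean, 0.567 RPM, lay nearer to shScrambled (0.459) than to shAjuba2 (0.791). Parental also served as the control for shAjuba2 in an alternative fit, and no test asked which line moved. PCDHB14 measured 1.01 and 1.13 RPM in shScrambled and 2.26, 1.78 and 1.71 in shAjuba2, which do not overlap (log2 fold change 0.78 ± 0.222, adjusted p = 0.0768). PCDHB5 measured 0.741 and 0.457 RPM in shScrambled and 1.46, 0.901 and 1.32 in shAjuba2 (log2 fold change 1.01 ± 0.320, adjusted p = 0.0965). Some members, such as PCDHB8 with 3 and 3 counts in shScrambled, entered this test through their shAjuba2 counts, so no count or median over the 22 is read here. Without shAjuba2 replicate 2, the library farthest from the others of its line, 5 members were called higher, PCDHB5, PCDHB11, PCDHB12, PCDHB14 and PCDHGB7. The share over all genes in that fit is not given, so this count is not read as a result about the members.

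**Figure D3:**
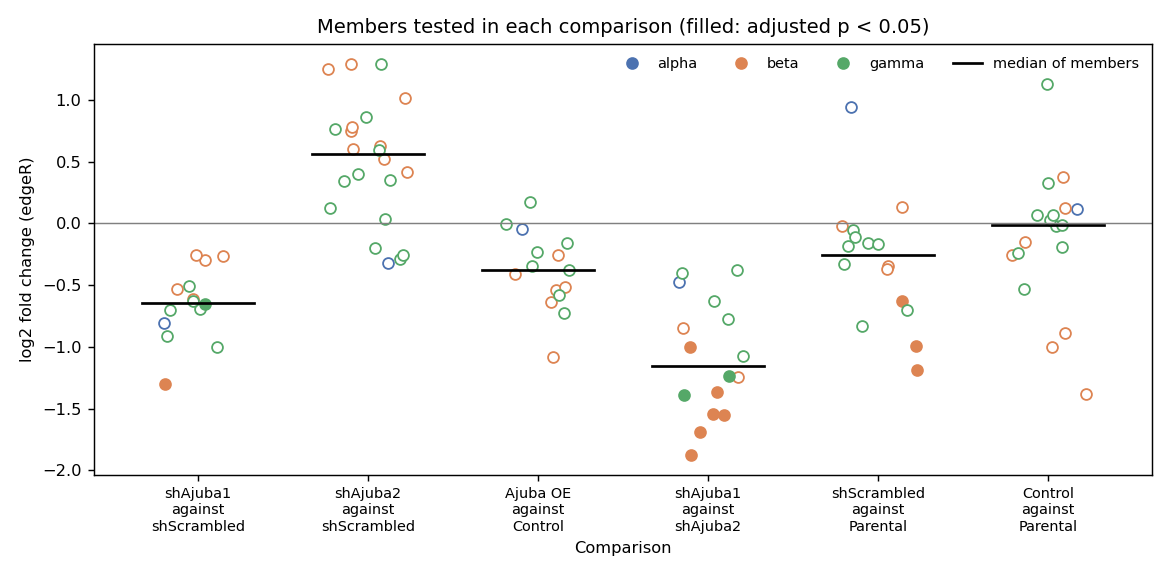
Log2 fold change (edgeR) of each member tested in the 6 comparisons, coloured by family, filled where the adjusted p is below 0.05. The black bar is the median of the members tested. The members tested in shAjuba1 against shAjuba2 all lie below 0, and 8 are filled. The filter on low counts keeps a member that is high in either line, so the medians are not read further.

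The 2 knockdown lines differed from each other directly. Between them 16 members were tested, and 8 were lower in shAjuba1, 6 of them beta genes, where 10.1% of all genes were called lower and 9.47% higher. The filter keeps a gene that is high in either line. PCDHB16, with 5, 2 and 4 counts in shAjuba1 and 21, 14 and 17 in shAjuba2, was tested through its shAjuba2 counts. The count of 8 is therefore not read against these shares. With at least 10 counts in every sample the count was 4. The largest fold change of the 8 was that of PCDHB16, and because of how it entered the test it is given as a value only. PCDHB16 measured 0.105, 0.0664 and 0.110 RPM in the shAjuba1 samples and 0.451, 0.315 and 0.350 in those of shAjuba2 (log2 fold change -1.87 ± 0.375, adjusted p = 0.00748). PCDHB13, given above for shAjuba1, measured 1.35, 1.31 and 1.01 RPM in shAjuba2 (log2 fold change -1.69 ± 0.271, adjusted p = 0.00246). PCDHB14 measured 0.649, 0.896 and 0.635 against 2.26, 1.78 and 1.71 RPM (log2 fold change -1.36 ± 0.221, adjusted p = 0.00263). For each of these 3 genes the samples of the 2 lines do not overlap. The remaining 5 were PCDHB5 (log2 fold change -1.55), PCDHB12 (-1.54), PCDHB11 (-0.999), PCDHGB7 (-1.39) and PCDHGA6 (-1.24). PCDHGC3, at a log2 fold change of -0.38, did not pass (adjusted p = 0.112). The count was 3 without shAjuba2 replicate 1 and 13 without shAjuba2 replicate 2, and it was 4 without shAjuba1 replicate 3. The shares over all genes in these fits are not given. PCDHB13 and PCDHB14 were called under every alternative in which they could be tested. PCDHB16 was too, but it entered through its shAjuba2 counts, so this is not read as support.

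The other members called between the knockdown lines had the following values. PCDHB5 measured 0.523, 0.166 and 0.469 RPM in the shAjuba1 samples, below each of the 3 shAjuba2 samples given above. PCDHB12 had 0.314, 0.166 and 0.0828 RPM under shAjuba1 and 0.817, 0.518 and 0.473 under shAjuba2, again without overlap, and it rests on 3 to 38 counts. For PCDHB11 the values were 0.293, 0.498 and 0.386 RPM against 0.924, 0.563 and 0.885. These 3 are beta genes, each a complete reading frame without the shared tail of the other families. In the gamma row PCDHGB7 had 0.335, 0.232 and 0.221 RPM under shAjuba1 and 1.01, 0.496 and 0.700 under shAjuba2. PCDHGA6 had 0.293, 0.664 and 0.276 RPM against 1.25, 0.676 and 0.967, so that its closest samples, both second libraries, nearly meet. PCDHGB5, the highest gamma gene after PCDHGC3, was not called (adjusted p = 0.187), with 0.481, 0.664 and 0.524 RPM in shAjuba1 samples and 1.18, 0.541 and 0.905 in shAjuba2 samples, which overlap.

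**Figure D4:**
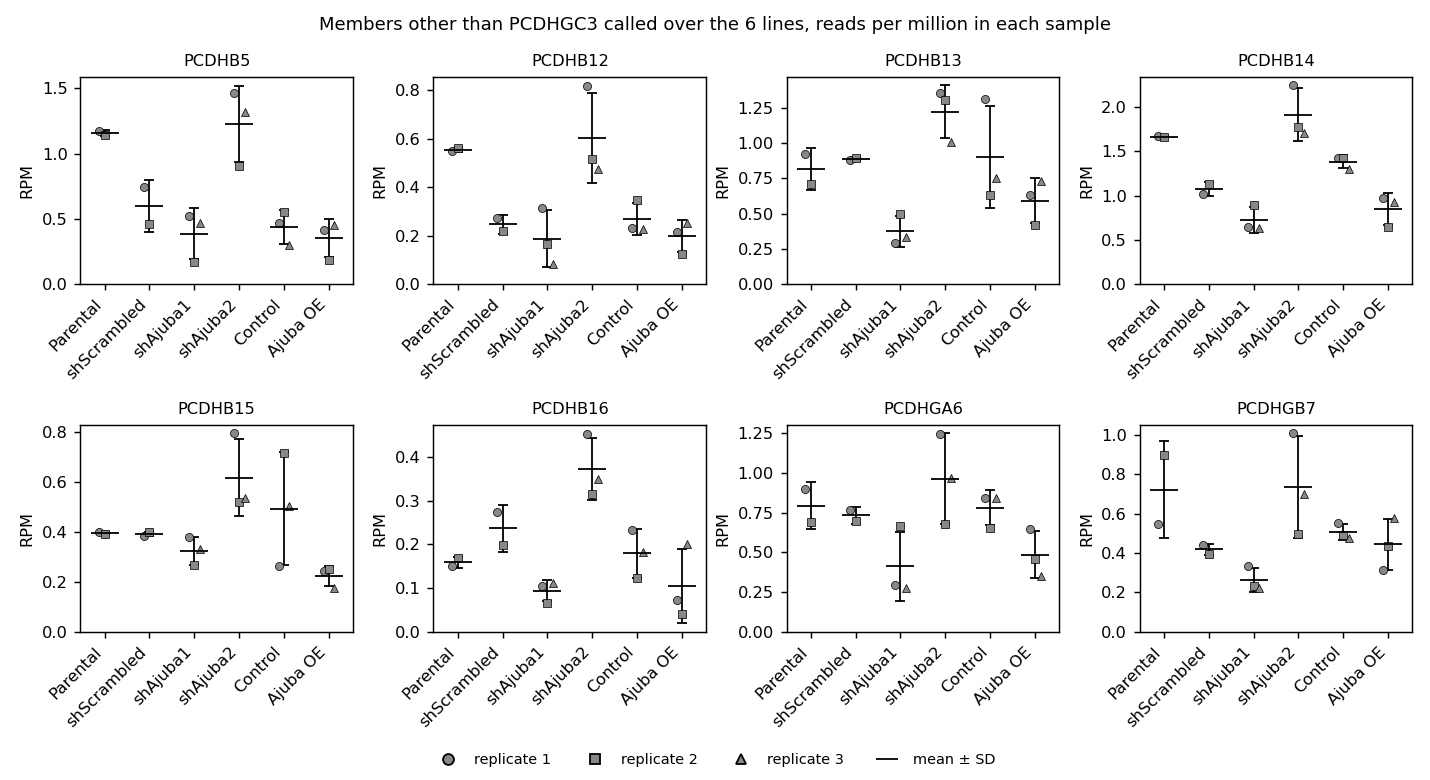
RPM in each sample of the 8 members other than PCDHGC3 called over the 6 lines. Points are samples, shaped by replicate number, and bars are mean ± SD. The shAjuba2 mean is the highest in each panel, and the lowest mean is that of shAjuba1 or Ajuba OE.

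Raising Ajuba gave no call in the cluster. Between Ajuba OE and Control 15 members were tested and 0 were called by edgeR or by DESeq2, where 2.39% of all genes were called higher and 3.03% lower. At an unadjusted p under 0.05 there were 2, PCDHB14 and PCDHB15. PCDHB14 measured 1.43, 1.43 and 1.30 RPM in Control and 0.976, 0.646 and 0.930 in Ajuba OE, which do not overlap (log2 fold change -0.64 ± 0.205, adjusted p = 0.141). PCDHB15 measured 0.262, 0.714 and 0.501 RPM in Control and 0.244, 0.250 and 0.176 in Ajuba OE (log2 fold change -1.09 ± 0.394, adjusted p = 0.189), a spread in Control that reaches almost to the Ajuba OE values. The median over the 15 was -0.38 and over all genes -0.01, and it is not read further, since the filter keeps a gene that is high in either line. Without replicate 2 of both lines the count was also 0. The summed stromal and neuronal markers lay below those of Control in Ajuba OE as well, at the levels given above, and their part was not tested.

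The control lines were each compared with the parental cells. Against Parental, 3 of 16 members tested were lower in shScrambled, where 15.6% of all genes were called lower and 15% higher, so the share of members was close to the background. PCDHB5 fell from 1.17 and 1.14 RPM in Parental to 0.741 and 0.457 (log2 fold change -0.99 ± 0.290, adjusted p = 0.0116), and PCDHB12 from 0.549 and 0.560 to 0.274 and 0.219 (log2 fold change -1.19 ± 0.382, adjusted p = 0.0202). PCDHB14 fell from 1.67 and 1.66 to 1.01 and 1.13 RPM (log2 fold change -0.63 ± 0.229, adjusted p = 0.0399). None of the 3 was called by DESeq2, in the fit of all 16 samples or without shScrambled replicate 2, and PCDHB5 alone was called without Parental replicate 2. Between Control and Parental 18 members were tested and 0 were called, where 0.0508% of all genes were called higher and 0.319% lower; 2 had an unadjusted p under 0.05, PCDHB5 and PCDHB12, and DESeq2, or edgeR without Control replicate 2, called PCDHB5 lower. PCDHB5 measured 0.466, 0.551 and 0.296 RPM in Control (log2 fold change -1.38 ± 0.282, adjusted p = 0.0981).

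Over the 6 lines together, 9 of the 24 members tested differed, against 45.7% of all genes, so the share of members was not above the background. They were PCDHGC3, the beta genes PCDHB5, PCDHB12, PCDHB13, PCDHB14, PCDHB15 and PCDHB16, and the gamma genes PCDHGA6 and PCDHGB7. PCDHB14 had the smallest adjusted p (2.21e-04), followed by PCDHB5 (0.00188) and PCDHGC3 (0.00396). The distance between the highest and the lowest line on the log2 scale ran to 1.88 for PCDHB16, and was 1.37 for PCDHB14 and 0.82 for PCDHGC3. The mean of PCDHB16 was 0.0938 ± 0.0239 RPM in shAjuba1, 0.105 ± 0.0847 in Ajuba OE, 0.159 ± 0.0130 in Parental, 0.179 ± 0.0554 in Control, 0.237 ± 0.0534 in shScrambled and 0.372 ± 0.0708 in shAjuba2, and neighbours in this order up to shScrambled lie within their spread. PCDHGB5 lay just outside the threshold (adjusted p = 0.0502) and PCDHGA6 just inside (0.0494). Without the shAjuba1 line, PCDHB5, PCDHB12 and PCDHB14 were called, and the share over all genes in that fit is not given.

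The make-up of the cluster was then compared as shares of counts, as a measure of promoter choice. With PCDHGC3 set aside, PCDHB14 had the largest share of the counts of the other 52 members in each line, from 10.7% in Ajuba OE to 13.6% in Parental. The shares followed Spearman's rho of 0.891 to 0.960 over the 15 pairs of lines, as a description over 52 genes that share libraries and include many at or near 0. The number of equally used promoters that would give the same spread of shares lay between 22.0 and 23.4 in every line. The shares of single members were not tested between lines: PCDHGB5 took 10.1% of these counts in Parental, 9.89% in Control and 5.97% in shAjuba2, and PCDHB5 took 9.47% in Parental and 8.47% in shAjuba2. Shares of counts are not scaled to gene length, and on average PCDHGB5 lay above PCDHB14 per kb of own exonic length (0.327 against 0.299 RPM) and below it per kb of all annotated exons (0.182 against 0.287 RPM).

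**Figure D5:**
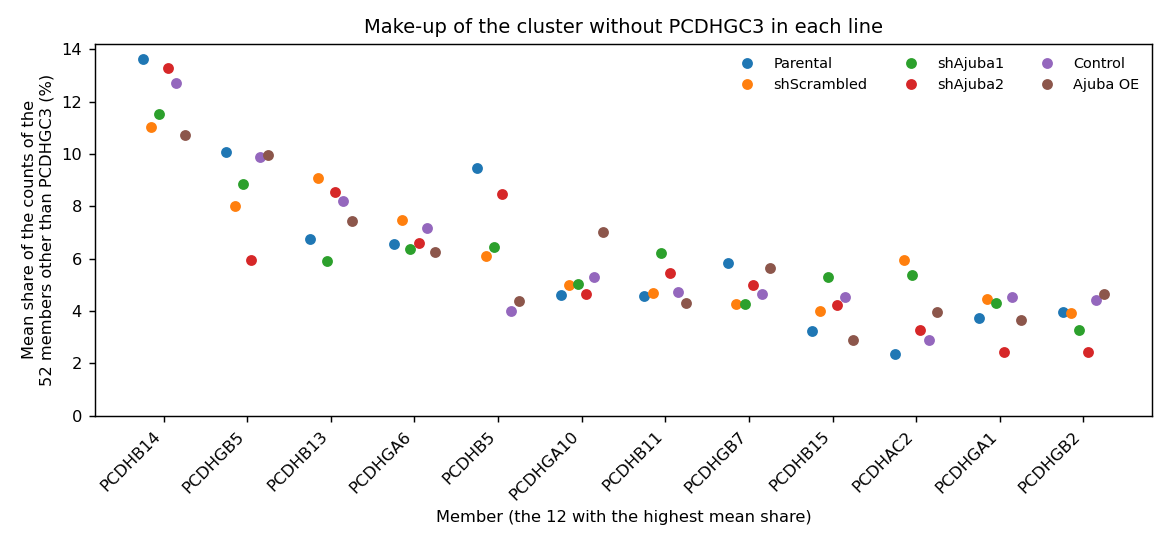
Mean share (%) of the counts of the 52 members other than PCDHGC3 taken by the 12 members with the highest mean share, in each of the 6 lines. Points are line means. PCDHB14 has the largest share in every line.

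The genes that set and read out promoter choice were measured as lists. Of 22 regulators of the cluster, all tested, 4 were higher and 3 lower in shAjuba1 than in shScrambled, shares no larger than the 18.2% and 20.2% of all genes. SMCHD1, which keeps clustered protocadherin promoters silent, was lower there (log2 fold change -0.29 ± 0.0816, adjusted p = 0.0132), as were the cohesin release factors PDS5A and PDS5B, while WIZ, STAG1, TRIM28 and DNMT1 were higher, between 0.23 and 0.42. In shAjuba2 and in Ajuba OE against their controls 0 of the 22 regulators were called by edgeR, with 3 and 0 at an unadjusted p under 0.05. Between shScrambled and Parental 11 of them were called, 3 higher and 8 lower, where 15% and 15.6% of all genes were. CTCF was among the lower ones (log2 fold change -0.34 ± 0.0799, adjusted p = 0.00235). SMCHD1 was higher in shScrambled than in Parental (0.24 ± 0.0756, adjusted p = 0.0192) and STAG1 lower (-0.33 ± 0.0772, adjusted p = 0.00207). Both go opposite to their change in shAjuba1 against shScrambled. The same shScrambled samples stand on opposite sides of these comparisons, so opposite directions can come from those samples alone, which was not tested. PDS5A and PDS5B were not called between shScrambled and Parental (adjusted p = 0.0972 and 0.724). SMCHD1 was not called over the 6 lines (adjusted p = 0.128). Between the 2 knockdown lines 0 were called, with 3 at an unadjusted p under 0.05.

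Of 20 partners and processing proteins, which include the WAVE complex that the protocadherin tails recruit and the proteases that cut the proteins, 3 were higher and 4 lower in shAjuba1 than in shScrambled, again no larger than the shares of all genes (18.2% and 20.2%). MARCKS, an actin-linked substrate of protein kinase C, had a log2 fold change of -2.05 ± 0.112 in shAjuba1 against shScrambled and of -1.03 ± 0.168 in Ajuba OE against Control (adjusted p = 4.77e-08 and 0.0132). AXIN1, the partner of PCDHGC3, was higher in shAjuba1 (log2 fold change 0.50 ± 0.088, adjusted p = 6.64e-04). In shAjuba2 against shScrambled 0 of the 20 were called, with 4 at an unadjusted p under 0.05. Of the 15 counted genes that neighbour the cluster, 14 were tested, and in shAjuba1 against shScrambled PCDH12 was higher and FCHSD1 lower (log2 fold change 0.65 and -0.56). Their median log2 fold change was -0.01. In shAjuba2 against shScrambled 0 of the 14 neighbours were called, with 2 at an unadjusted p under 0.05 and a median of 0.17, against -0.01 over all genes. In Ajuba OE against Control PCDH1, a non-clustered protocadherin, was the 1 neighbour called (log2 fold change -0.42 ± 0.085).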

How the data were processed

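RNA was sequenced by the study with the TruSeq Stranded mRNA kit as paired 50-base reads on a NovaSeq instrument, aligned to GRCh38 with HISAT2 and counted per gene with featureCounts over exons. Tool versions, the annotation release and the handling of strand and multi-mapping reads are not given in the sources used here. As a sign of the strand setting, 15.1% of genes wholly covered by exons on the opposite strand had a count, against 78.1% of genes with their own bases. The deposited values are raw counts per gene made by the authors, with no normalization. Identifiers were matched to GENCODE v44, which held 56434 of 66023 rows and 99.8% of the counts. RPM per kb used exonic bases shared with no other gene.

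Members and lists were chosen with earlier results of these data known. Counts were tested with edgeR 4.0.16 (quasi-likelihood, TMM scaling, the filterByExpr filter, R 4.3.3), in 2-line fits and over all 6 lines, with Benjamini-Hochberg adjustment over all genes tested and calls at an adjusted p below 0.05. The fit was tested on simulated data. Exact tests of summed family levels had been planned and are not given, since the members were chosen with results known, and values are given in their place. Named members are the 4 highest per kb in each family, the 5 C-type genes, the 8 with the smallest adjusted p over the 6 lines, and up to 4 called members of each comparison. Where a smaller count called for it, others were named after their values were seen. No member was called in 1 direction in both knockdown lines. Alternatives were another scaling or filter, DESeq2 1.42.0, a replicate block, left-out samples, Parental as the control and a fold limit. Leaving out the shAjuba1 line, leaving out the second library of 3 lines and an own-strand length were chosen after seeing the data. Figures were drawn with matplotlib 3.10.9.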

Additional observations from a re-analysis of the deposited data

Results flagged for a closer look

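The 2 knockdown lines differed from each other for 8 members, by the edgeR quasi-likelihood test of shAjuba1 directly against shAjuba2. The log2 fold change was -1.55 for PCDHB5, -1.87 for PCDHB16, -0.999 for PCDHB11, -1.54 for PCDHB12, -1.69 for PCDHB13, -1.36 for PCDHB14, -1.24 for PCDHGA6 and -1.39 for PCDHGB7, each lower in shAjuba1. PCDHB16 was too low to be tested in shAjuba1 against shScrambled, so its value is that of the direct comparison alone. It entered that comparison through its shAjuba2 counts. The lines differ in the shRNA and in the measured level of AJUBA, and with 1 line per shRNA these cannot be told apart. The difference in AJUBA between them did not pass the same test (log2 fold change -0.26 ± 0.116, adjusted p = 0.141). No line has the 4 samples needed to test a single sample as an outlier.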

How the results depend on the processing

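Of 109 alternative counts of called members, 80 lay within 1.5 times the reported count and 29 did not. The calls of named members in 2-line comparisons kept their sign in 158 settings and lost significance in 34, and those over the 6 lines lost it in 35 of 211. The cause of a move was not tested unless the alternative itself removes samples or genes. Shares over all genes are not given for the alternatives, so their counts are not read as results about the members. For shAjuba1 against shScrambled (2 called), the count was 4 with at least 10 counts in every sample, 9 of 15 tested with Parental as the control, a comparison whose share over all genes is not given, 1 with a log2 fold change of at least 1, and 2 to 4 leaving out a replicate. For shAjuba2 against shScrambled (0), it was 4 with every gene with a count, 3 with the replicate block, 1 in the fit of all 16 samples, 5 without replicate 2, and 0 to 5 leaving out a replicate. For Ajuba OE against Control (0), it was 1 with the replicate block, 1 in the fit of all 16 samples, 1 with Parental as the control and 0 leaving out any replicate. For shAjuba1 against shAjuba2 (8), it was 4 with at least 10 counts in every sample and 3 to 13 leaving out a replicate. For shScrambled against Parental (3), it was 5 with every gene with a count, 6 with at least 10 counts, 0 with DESeq2, 0 in the fit of all 16 samples, 1 with the fold limit and 0 to 3 leaving out a replicate. For Control against Parental (0), it was 1 with every gene with a count, 1 with DESeq2 and 0 to 1 leaving out a replicate. Over the 6 lines (9), it was 5 with at least 10 counts in every sample, 3 without the shAjuba1 line and 6 to 11 leaving out a replicate. The replicate block kept the other counts within 1.5 times. The numbers do not pair the samples: same-numbered deviations correlated at -0.13 to 0.50, and 3 of 6 libraries of Ajuba OE and Control and 0 of 6 of the knockdown lines correlated best with their own number. Differences between family sums moved by no more than the larger SD of the 2 lines in 111 settings. Most of these leave out 1 sample, which cannot move a mean of 2 or 3 samples by 1 SD, so they could not show a move. The rest used TMM scaling. Depth limits the low members: a count of 0 allows up to 0.0996 RPM in the shallowest sample.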

Other observations

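The beta pseudogenes of the cluster, which hold related exons, gave few reads. PCDHB18P averaged 0.349 ± 0.0596 RPM in shAjuba2 (SD, n = 3), 0.290 ± 0.0164 in Control, 0.249 ± 0.0356 in Parental (n = 2), 0.161 ± 0.0435 in Ajuba OE, 0.131 ± 0.0613 in shAjuba1 and 0.122 ± 0.0602 in shScrambled (n = 2). PCDHB19P averaged 0.251 ± 0.0312 RPM in shAjuba2 and 0.081 to 0.176 RPM in the other lines, and PCDHB17P never passed 1 count. Of 16 long non-coding RNA genes that lie inside members, 11 had no count in any sample and the highest had 3.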
